A study of Mus musculus with 60 samples.

Results

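Kidney-only circRNAs are the 277 circular RNAs whose exact position stood in the authors' deposited kidney table and in none of the brain, heart, liver and spleen tables. They were 27.8% of the 996 kidney circRNAs and 9.90% of the 2799 circRNAs of the series. The study compared male mice of the genotypes Ftsj1_DF (Ftsj1-deficient) and WT (wild-type), 4 months old and without special treatment, with 3 mice per genotype and 5 organs per mouse. Of the 6 mice, 4 were brothers, among them 2 WT, and the other 2 were brothers too, 1 of them WT. Each kidney library, made from whole kidney tissue, was sequenced in 2 batches, which gives 12 kidney samples. The labels used here give neither the Ftsj1 allele nor the strain. Ftsj1 encodes an enzyme that adds methyl groups to the ribose of tRNA.

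A circRNA forms by back-splicing, in which the splice donor at the end of an exon joins the acceptor at the start of the same exon or of an exon upstream. The closed ring has no free end, so the exonuclease RNase R, used here on the RNA before sequencing, digests linear RNA and leaves circles. A gene can give several circRNAs when one acceptor is joined to different donors, or one donor to different acceptors. The kidney holds many specialised epithelial cell types along the nephron, and a whole-organ library mixes them. In such bulk samples, fewer cells of a type and less RNA per cell cannot be told apart.

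CircRNAs are named by position on GRCm39, the build in the submitters' processing notes, as the tables give them. The tables hold no gene names and no strand, so start and end mean the lower and the higher position. The annotation and sequences at hand are of GRCm38, another build, so no host gene, exon or sequence is given, and the kidney cell type markers could not be checked. No values per mouse were analysed here. Each row of the authors' deposited tables holds a mean normalized count, which is the average over the libraries of an organ with both genotypes together, and the authors' log2 fold change, whose standard error (SE) stands beside it. The fold change was read as the genotype comparison, and its sign is given as deposited because the numerator is not stated in the sources used here. The depth of each library is unknown.

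The set was chosen by detection, that is by which circRNAs passed the removal of low expression that the authors made in each organ separately. The sources used here do not give the limit, and an organ whose table lacks a circRNA may still contain it. In the authors' deposited kidney table the lowest mean normalized count of a kidney-only circRNA was 0.707. Just outside the set stood 265 kidney circRNAs listed in exactly 1 other organ, 139 of them in brain, 83 in liver, 41 in heart and 2 in spleen. Of these, chr11:97122715-97129084 had the lowest mean normalized count in the other organ, 0.970 in the authors' deposited brain table, beside 1.85 in kidney. The match by exact position also kept one close variant. The kidney-only chr13:46005804-46110048, at 0.782 in the authors' deposited table, ends 3 bases before a circRNA with the same start that stood in all 5 tables and had a mean normalized count of 22.9 in kidney. With a tolerance of 5 bases at both ends, 276 kidney-only circRNAs were left.

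Most kidney-only circRNAs were scarce. In the authors' deposited table, the median of their mean normalized counts was 2.18, against 4.01 for the 719 kidney circRNAs that another organ also listed. A mean normalized count below 5 was found for 230 of the 277, or 83.0%, against 58.7% of the other kidney circRNAs in the authors' deposited table. Together the 277 held 14.3% of the summed mean normalized count of kidney. With all kidney circRNAs ranked by abundance and cut into 4 groups of 249, the kidney-only ones were 46.2% of the lowest group, then 30.5% and 23.7%, and 10.8% of the highest. Membership rests on detection, so abundance is close to what the rule used, and the gradient is a description that was not tested. In each other organ, too, the organ-only median was below that of the shared circRNAs in the authors' deposited tables. It was 2.84 against 6.56 in brain and 1.82 against 3.23 in heart. Liver had 6.86 against 10.5, and spleen 1.52 against 3.61.

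**Figure D1:**
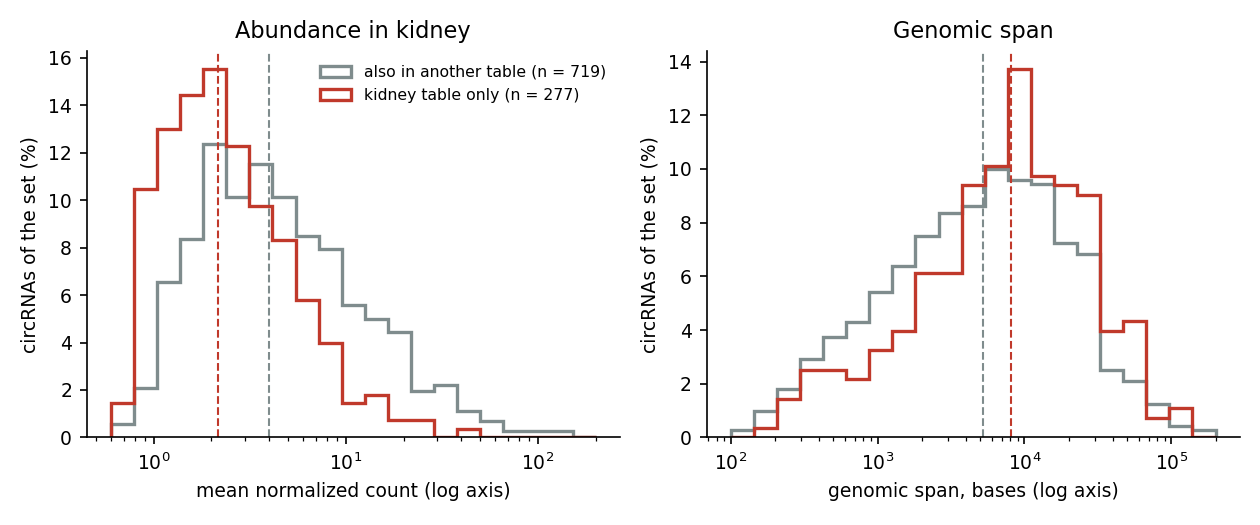
Distribution of the mean normalized count (left, log axis) and of the genomic span in bases (right, log axis) in the authors' deposited kidney table, as the percentage of the 277 kidney-only circRNAs (red) and of the 719 also listed in another organ (grey). Dashed lines are the medians, which lie at 2.18 and 4.01 for abundance and at 8042 and 5245 bases for span.

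A few kidney-only circRNAs were nevertheless abundant, and 14 had a mean normalized count of at least 10. The highest was chr19:28331606-28335352, with 39.6 in the authors' deposited table, the rank of 19 among all 996 kidney circRNAs. A pair with one common start followed further along the same chromosome. The authors' deposited table gave 25.2 for chr19:28508273-28517808 and 19.1 for chr19:28508273-28509386. These 3 circRNAs were the only ones listed in that stretch of 186203 bases, and no other organ had any there. Between the chromosome 19 circRNAs stood chr6:23107139-23122736 at 27.3 and chr8:61782253-61783052, which spans 800 bases, at 21.1 in the authors' deposited table.

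The other 5 of the 10 most abundant had mean normalized counts from 13.5 to 16.5 in the authors' deposited table. They were chr3:129506603-129510427 (16.5), chr1:20268242-20309662 (14.4), chr7:87009936-87025490 (14.0), chr14:57541050-57550586 (13.8) and chr10:69756268-69768326 (13.5). The 10 together held 21.1% of the set's summed mean normalized count. None of them overlapped a circRNA of another organ, as was so for 204 of all 277 kidney-only circRNAs (73.6%).

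Kidney-only circRNAs covered longer stretches of the genome than the other kidney circRNAs. Genomic span is the distance from first to last base, introns included, and not the length of the mature circle. Whether the tables count positions from 0 or from 1 is not stated, and spans and overlaps were computed with both end positions included, so each would be 1 base shorter if starts count from 0. The median span was 8042 bases for the kidney-only set and 5245 for the kidney circRNAs shared with another organ. The kidney-only median was the larger one in each of the 4 abundance groups, from lowest to highest 7276 against 4426, 8578 against 5617, 9909 against 5432 and 7810 against 5167 bases. Within the set, span and abundance were nearly unrelated across circRNAs (Spearman's rho 0.03, n = 277, all from the same libraries). Circles of 10 kb or more numbered 118, of which 16 spanned at least 50 kb, and 29 spanned less than 1 kb. As a description of other organs, the median was 6593 bases for the 1101 brain-only and 4131 for the 287 liver-only circRNAs, where the shared ones of those organs had 5465 and 4188. Heart-only circRNAs had 6115 against 4685 bases, and spleen-only ones 2197 against 3825, so the shared circRNAs were the longer ones by median in liver and spleen. CircRNAs are not replicates, so these medians were compared without a test.

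At the ends of the range lay scarce circRNAs. The longest was chr4:84332483-84464642 at 132160 bases, with a mean normalized count of 1.10 in the authors' deposited table. Next came chr19:32200909-32329423, 128515 bases, and the chromosome 13 variant described above, 104245 bases. The shortest were chr11:30169579-30169772 with 194 bases, chr2:105128071-105128313 with 243 and chr9:44112257-44112504 with 248. All 6 had a mean normalized count of at most 1.52 in the authors' deposited table.

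The kidney-only circRNAs lay on 20 chromosomes, most often on chromosome 2 (27), chromosome 1 (26) and chromosome 5 (21). On chromosome 1 they were 26 of 64 kidney circRNAs, or 40.6%, and on chromosome 9 they were 12 of 63, where the whole table had 27.8%. On the X chromosome, which carries Ftsj1, 4 of 7 kidney circRNAs were kidney-only. The single kidney circRNAs of the Y chromosome and of the mitochondrial genome were both listed in another organ.

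Whether the whole locus or only the pair of ends was listed in kidney alone was examined next. Of the 277, 204 (73.6%) overlapped no circRNA of any other organ by even 1 base. The remaining 73 overlapped one: 52 overlapped a brain circRNA, 38 a liver, 32 a heart and 15 a spleen circRNA. The tables themselves had 1856, 900, 664 and 308 circRNAs, in the same order of organs. The same share without overlap was 85.8% for brain-only, 78.7% for liver-only, 69.6% for heart-only and 87.1% for spleen-only circRNAs. One exact end was shared with a circRNA of another organ by 64 of the 73, at the start in 30 and at the end in 44. In 10 of them both ends were in use elsewhere, and 9 overlapped without a common end. The 73 had a median span of 16791 bases and a median mean normalized count of 1.88 in the authors' deposited table, against 6718 bases and 2.31 for the 204. A longer circRNA has more room for an overlap, so the spans follow in part from the way the groups were made.

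Kidney itself offered a comparison of circles that share an end. For 46 kidney-only circRNAs, the kidney table also held a circRNA with the same start or the same end that was listed in another organ, which makes 54 pairs, 21 at the start and 33 at the end. Some circRNAs stand in more than 1 pair. The kidney-only circle was the scarcer one in 43 of the 54 pairs and the longer one in 35. Its mean normalized count was a median 0.396 of that of its partner in the authors' deposited table. By the choice of pairs, the kidney-only circle was listed in no other organ and its partner in at least 1. Abundance is therefore close to what that choice used. These are descriptions of pairs from the same libraries, and the direction was not tested.

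The widest gap belonged to the most abundant circRNA of kidney. The authors' deposited table gave 145.9 for chr5:89528172-89537469, which liver also listed, and 2.20 for the kidney-only chr5:89528172-89561236 with the same start, a ratio of 66.4. The longer circle thus held 1.48% of the summed count of the pair. In the opposite direction, the kidney-only chr7:120647061-120656622 (11.5) exceeded chr7:120651310-120656622 (7.26), which has the same end, in the authors' deposited table. The pair chr15:82709432-82741485 and chr15:82735714-82741485 stood at 8.36 and 8.78, nearly level. For scarce circles the counting error behind such ratios is unknown.

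**Figure D2:**
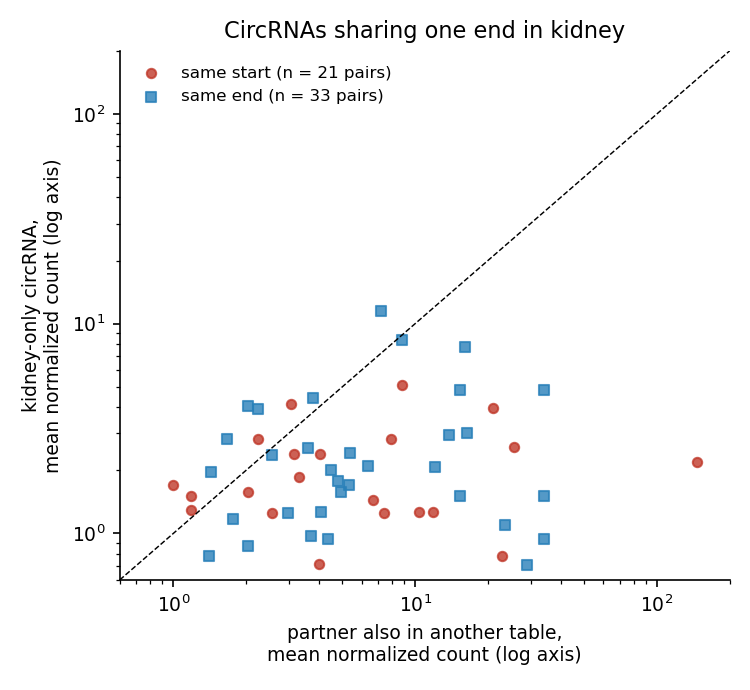
Mean normalized count in the authors' deposited kidney table of each kidney-only circRNA (vertical, log axis) against the circRNA with the same start (circles, 21 pairs) or the same end (squares, 33 pairs) that another organ also lists (horizontal, log axis). The dashed line marks equal counts, and 43 of the 54 pairs lie below it.

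Kidney-only circRNAs also shared loci with each other. Joined where they overlapped, the 277 made 248 loci, of which 226 held 1 circRNA, 18 held 2, and 4 held from 3 to 5. The 51 circRNAs in loci of at least 2 were 18.4% of the set, where the same count among the other kidney circRNAs gave 23.2%. In the 18 loci of 2, the pair had one start and different ends in 7, one end and different starts in 8, and no common end in 3. Of the 22 loci with at least 2, 14 were free of circRNAs of other organs. Counted by circRNA, 204 of all 277 kidney-only ones (73.6%) overlapped none of them. The former counts loci and the latter circRNAs, and the difference was not tested.

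The largest locus lay on chromosome 1, from 20417435 to 20451818, and held 5 kidney-only circRNAs built from 4 starts and 3 ends. The end at 20451818 closed 3 of them, with starts at 20429064, 20434343 and 20444080. The start at 20444080 was also joined to an end at 20447724, and that short circle of 3645 bases was the most abundant of the 5, at 4.80 in the authors' deposited table. The remaining circle, chr1:20417435-20434455, overlapped chr1:20434343-20451818 by 113 bases. It also overlapped chr1:20429064-20451818, over a longer stretch. Their 5 mean normalized counts ran from 1.55 to 4.80 in the authors' deposited table.

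This locus stood in a wider neighbourhood, chr1:20151410-20664192, where gaps between kidney-only circRNAs stayed under 500 kb. It held 10 kidney-only circRNAs in 6 loci, more than any other such stretch, with a summed mean normalized count of 43.8 in the authors' deposited table. The highest of them, chr1:20268242-20309662, was among the 10 most abundant. Other organs listed a single circRNA in these 512783 bases. That circRNA, chr1:20573166-20579336, was listed in liver and had 20.9 in the authors' deposited kidney table. The kidney-only chr1:20573166-20594489 with the same start had 3.97 there.

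On chromosome 5, the stretch from 89176152 to 89561236 held 7 kidney-only circRNAs and the kidney leader described above. In its first locus, the end at 89232577 closed circles that began at 89176152 and 89205808. From 89232501, just before that end, a pair of other circles ran to 89270418 and 89297292. Each of the former thus overlapped each of the latter by 77 bases. Their mean normalized counts were 1.58, 5.75, 3.22 and 1.18 in the authors' deposited table, in the order of the positions given. Each of the 4 overlapped a liver circRNA.

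Short overlaps of this kind, of at most 200 bases between neighbouring circles, occurred in 8 pairs from 5 loci, with lengths from 61 to 113 bases. The chromosome 7 locus from 86963272 to 87025490 was one. There chr7:86963272-86988225 (4.69) and chr7:86988165-87025490 (0.720) overlapped by 61 bases, and the latter shared its end with chr7:87009936-87025490 (14.0), in the authors' deposited table. No other kidney circRNA and no circRNA of another organ lay in this locus. The opposite case was the locus on chromosome 8 from 78037360 to 78115364. Its 3 kidney-only circRNAs had 4.85, 1.51 and 1.29 in the authors' deposited table, and all 3 overlapped circRNAs of brain, heart and liver.

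**Figure D3:**
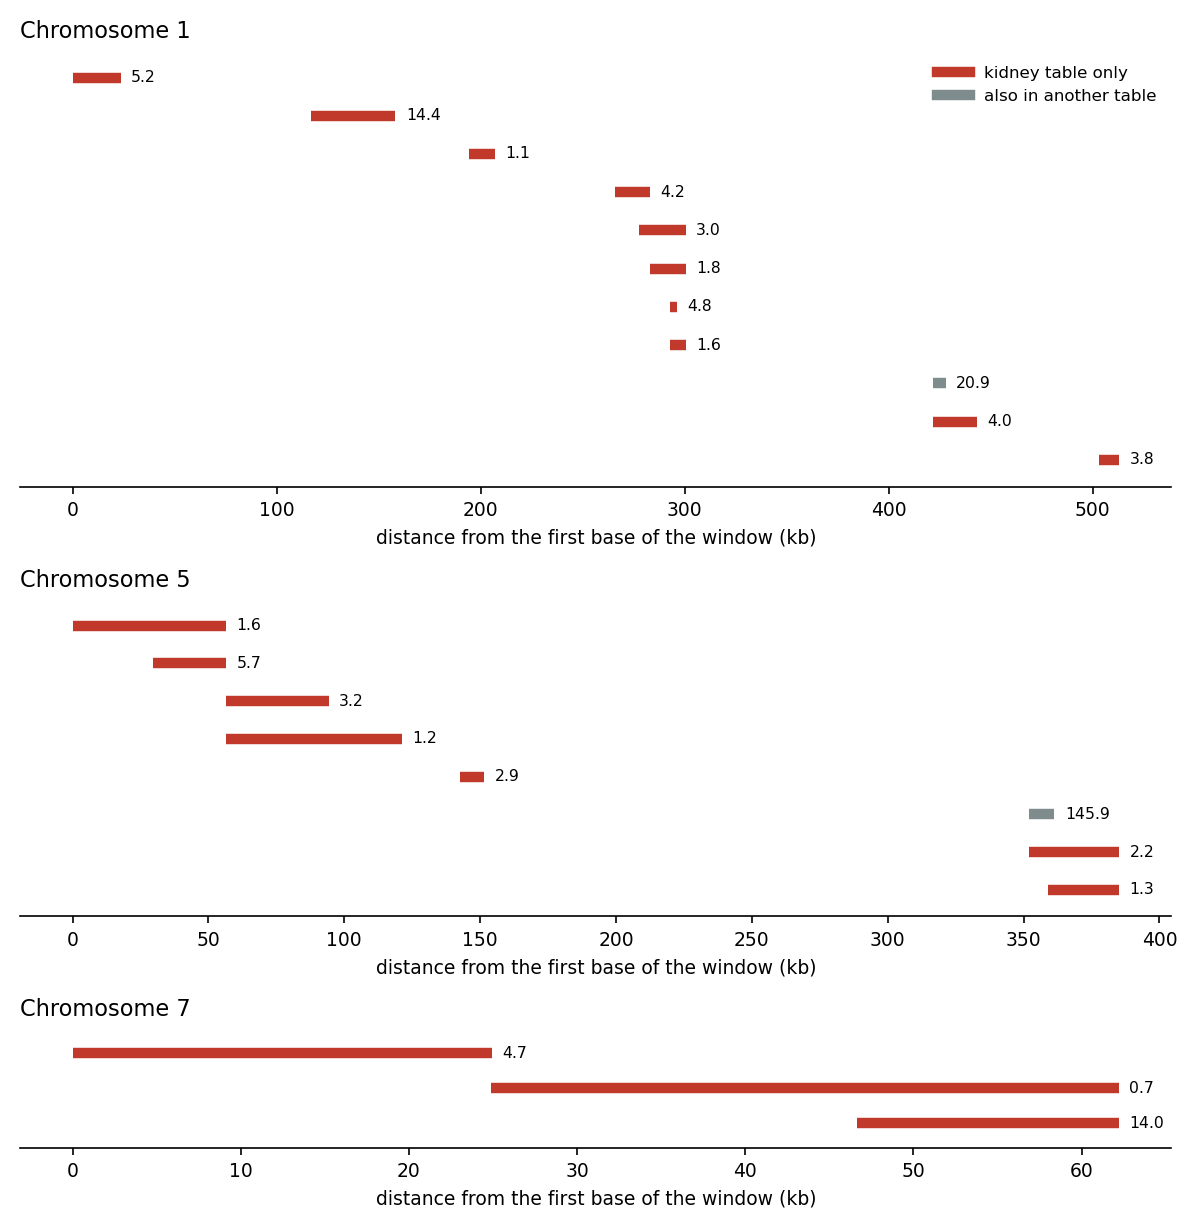
Kidney circRNAs in the neighbourhoods on chromosomes 1, 5 and 7, drawn to scale as bars by distance in kb from the first base of each window, with the mean normalized count of the authors' deposited table beside each bar. Red bars are kidney-only (10, 7 and 3) and grey bars are also listed in another organ (1, 1 and 0).

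The genotype comparison is independent of the choice by organ, apart from the removal of low expression. A circRNA that passed that filter only through the genotype in which it was high had to differ, and whether the filter looked at genotypes is not known. No kidney-only circRNA passed an adjusted p below 0.05 in the authors' DESeq2 test with Benjamini-Hochberg adjustment over the kidney table, where the share called was 0% of 989 tested. The smallest adjusted p was 0.999. At an unadjusted p below 0.05 there were 9 of the 275 kidney-only circRNAs tested, all positive, or 3.27%. The background was 1.82% of all 989 kidney circRNAs tested, and 9 of the 714 shared ones (1.26%). These shares rest on 9 circRNAs each and on the same libraries, and their difference was not tested.

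The 9 were scarce, with mean normalized counts from 2.44 to 6.68 in the authors' deposited table. None overlapped a circRNA of another organ, as was so for 204 of all 277 kidney-only circRNAs (73.6%). The smallest p in the authors' DESeq2 test belonged to chr1:20417435-20434455 of the largest locus, at 4.24 mean normalized counts, where the log2 difference was 4.88 (SE 1.86) and the adjusted p was 0.999. The 4 other circles of that locus had log2 fold changes from -0.62 to 1.07 with SEs from 1.47 to 2.05 in the authors' deposited table, and none had an unadjusted p below 0.05. The circle on the other side of the short overlap, chr1:20434343-20451818, stood at 1.07 (SE 2.00) in the authors' deposited table.

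A pair of the 9 came from one start on chromosome 16. In the authors' deposited table, the log2 fold change of chr16:58305126-58327977 was 3.96 (SE 1.63), and its mean normalized count was 6.68. For chr16:58305126-58314224, the authors' deposited table gave 4.25 (SE 2.01) and 2.77. The 95% intervals, 0.76 to 7.17 and 0.31 to 8.19, overlapped widely. Of the 22 loci with at least 2 kidney-only circRNAs, 10 had 1 sign throughout, this one among them, and all 10 were among the 18 loci of 2. Across the whole set 59.9% of log2 fold changes were positive, and agreement of sign within loci was not tested.

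The other 6 stood alone in their loci. In the authors' deposited table their log2 fold changes were 4.50 (SE 1.92) for chr7:132429432-132438936, 4.27 (SE 1.86) for chr10:125130464-125137950 and 4.44 (SE 2.01) for chr19:25386450-25389128. The authors' deposited table gave 4.21 (SE 1.97) for chr16:17894106-17902619, 4.07 (SE 1.91) for chr17:51224555-51227631 and 3.30 (SE 1.65) for chr4:144881139-144883352. Each of the 6 intervals reached at least 6.54 upwards, and the lowest of their lower bounds was 0.07.

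Of the 9, 7 lay on a plateau on which the size of the fold change follows from the mean. Subtracting log2 of the mean normalized count from the absolute log2 fold change left 2.65 to 3.19 for its kidney-only circRNAs, and 2.29 for the next one. Fold changes on the plateau are therefore no separate measure of how strongly a circRNA differed. It held 16 kidney-only circRNAs, 11 positive and 5 negative, or 5.78%, against 16 of the 719 other kidney circRNAs (2.23%). By abundance group, from lowest to highest, it held 7 of 115, 8 of 76, 1 of 59 and 0 of 27 kidney-only circRNAs. Among the others it held 7 of 134, 7 of 173, 2 of 190 and 0 of 222, and the difference was not tested. Without the plateau 2 of the 9 were left, chr16:58305126-58327977 and chr4:144881139-144883352.

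**Figure D4:**
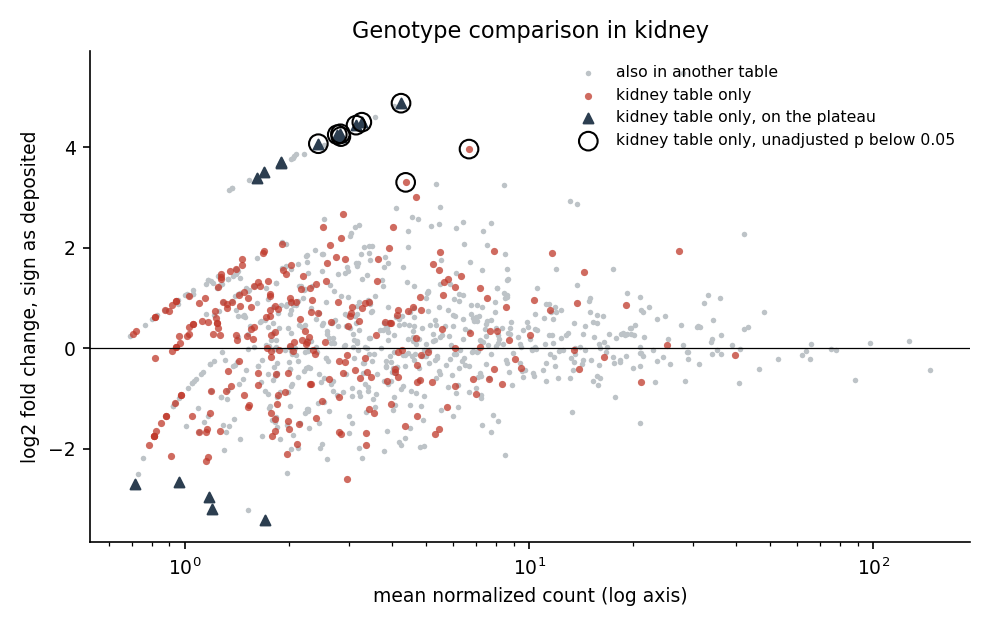
Log2 fold change of the genotype comparison, sign as deposited, against the mean normalized count (log axis) in the authors' deposited kidney table, for kidney-only circRNAs (red), those of them on the plateau (dark triangles) and circRNAs also listed in another organ (grey). The 9 ringed kidney-only circRNAs have an unadjusted p below 0.05. They are all positive, with mean normalized counts from 2.44 to 6.68, and 7 of them lie on the upper plateau.

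On the negative side no kidney-only circRNA had an unadjusted p below 0.05 in the authors' DESeq2 test, as for the whole kidney table (0% of 989). The smallest p was that of chr11:50192585-50199756, a plateau circRNA whose log2 fold change was -3.42 (SE 2.16) at 1.70 mean normalized counts in the authors' deposited table. Second stood chr19:4837389-4844037, for which the authors' deposited table had -2.61 (SE 1.66). A circRNA with the same end, chr19:4842426-4844037, was listed in 3 other organs and had 2.88 (SE 1.16) in kidney. The difference within this pair, -5.48, was the largest of the 54 pairs in the authors' deposited table. Its error is unknown, because both circles were measured in the same libraries. Next came chr6:39616524-39628698 (-3.21, SE 2.17), chr3:41672164-41688670 (-2.95, SE 2.22) and chr14:118891562-118906519 (-1.72, SE 1.48) in the authors' deposited table.

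The abundant kidney-only circRNAs gave the closest estimates. For the leader, chr19:28331606-28335352, the log2 fold change was -0.14 in the authors' deposited table, and its 95% interval ran from -1.71 to 1.44. Its SE of 0.80 was the smallest of the set. The pair with one start on chromosome 19 had 0.07 (-1.60 to 1.73) and 0.87 (-1.33 to 3.07) in the authors' deposited table. For chr6:23107139-23122736 the value was 1.93 (-0.21 to 4.08), the farthest from 0 among the 10 most abundant, and the unadjusted p was 0.0767 in the authors' DESeq2 test. The authors' deposited table gave -0.67 (-2.41 to 1.08) for chr8:61782253-61783052 and 1.52 (-1.26 to 4.30) for chr1:20268242-20309662. All 10 intervals included 0, and none lay wholly within a 2-fold change either way. Nor did the interval of any other kidney-only circRNA lie wholly within a 2-fold change.

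**Figure D5:**
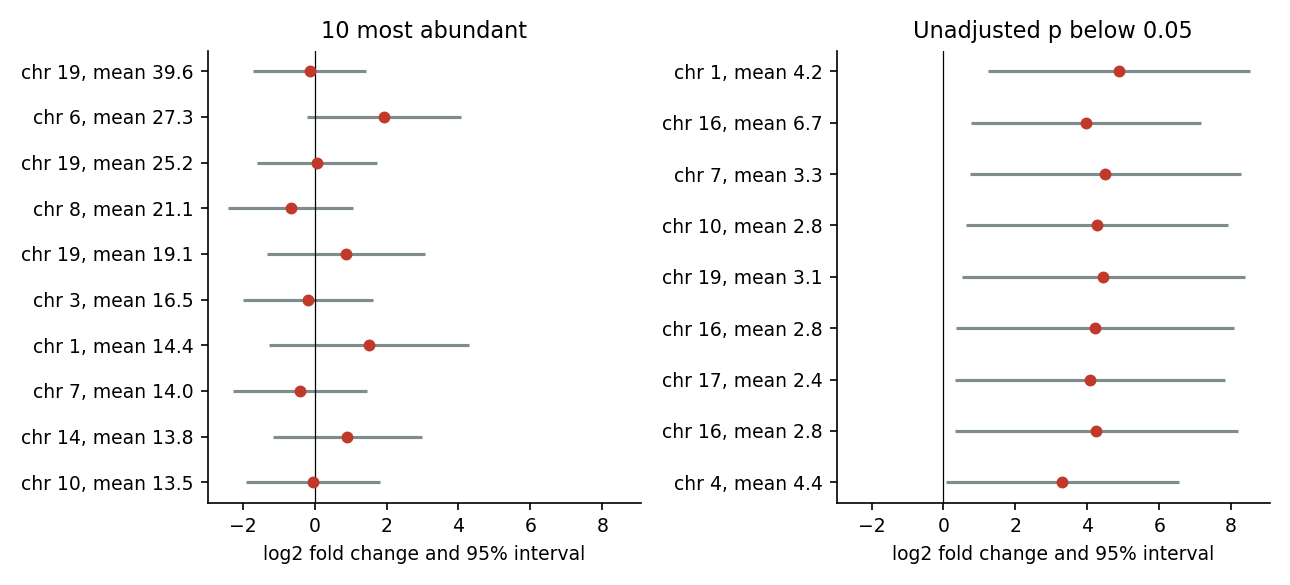
Log2 fold change (points) with its 95% interval (lines) in the authors' deposited kidney table for the 10 most abundant kidney-only circRNAs (left) and for the 9 with an unadjusted p below 0.05 (right), labelled by chromosome and mean normalized count. Every interval on the left includes 0, and the lower bounds on the right run from 0.07 to 1.23.

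Across the set, 166 log2 fold changes were positive and 111 negative in the authors' deposited table, or 59.9% positive, against 57.0% of the other kidney circRNAs. The median was 0.29 for the kidney-only set, 0.17 for the others and 0.20 for all kidney circRNAs. The median SE of a single kidney-only circRNA was 1.97, and the median distance from an estimate to either 95% bound was 3.86 log2 units, against 3.03 for the others in the authors' deposited table. All circRNAs come from the same libraries, so these medians have no error of their own here. The SE followed abundance closely across the 277 (Spearman's rho -0.92, a description). The 4 X-linked kidney-only circRNAs had unadjusted p-values of at least 0.414 in the authors' DESeq2 test.

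A p-value was missing for 2 kidney-only circRNAs. The log2 fold changes in the authors' deposited table were -0.57 (SE 1.59) for chr13:58178227-58198952 and -1.35 (SE 1.68) for chr7:143555660-143585207.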

How the data were processed

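CircRNA libraries of 5 organs were made from RNA that was depleted of ribosomal RNA, polyadenylated and digested with RNase R, per the labels' protocols. BWA 0.7.17-r1188, DESeq2 and GRCm39 appear without roles in the submitters' processing notes. The sources used here do not give how circRNAs were called, which model was fitted and how the 2 batches entered it. Each table row holds, per the file headers, a mean abundance signal (mean normalized count), a log2 fold change with its SE, the Wald statistic (a score), a p-value and an adjusted p-value. In all 989 kidney rows with a p-value, the p and adjusted p recomputed from the deposited statistic differed from the authors' by under 1e-06.

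Computed here with Python 3.11.15 and pandas were set membership, overlap (at least 1 base), loci, shared ends, medians and 95% intervals (log2 fold change ± 1.96 SE). The overlap, locus and adjustment code was tested on simulated data. The plateau margin of 2.5 was set after the values were seen. The members and lists were chosen with earlier results of these data known. Counts per library were not analysed here, so library depth is unknown and no test of counts was run. Repeat runs entered as separate samples would make the SEs too small. Named are the 10 most abundant kidney-only circRNAs, those with an unadjusted p below 0.05, the 5 smallest p per direction, the 3 longest and 3 shortest, the 3 smallest SEs, loci of 3 or more, near variants and those without a p-value. Pairs sharing an end and the chromosome windows were picked after their values were seen. Host gene lists were fixed for a GRCm39 annotation and were not used.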

Additional observations from a re-analysis of the deposited data

How the results depend on the processing

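Across 32 alternative settings of 9 results, 26 stayed within the limit set, which for counts, abundance and span was 1.5 times the value reported. For the median log2 fold change the limit was 1.97, the median SE of a single kidney-only circRNA. That is no error of the median itself. The limit is so wide that all settings of this median stayed within it, which says little about its stability. In the authors' DESeq2 test, 0 kidney-only circRNAs had an adjusted p under 0.05 under all 6 of its settings, beside 9 at an unadjusted p below 0.05. The smallest adjusted p in that test was 0.999, so none of these settings, a threshold of 0.1 among them, could have given another count. The count of 0 negative ones at an unadjusted p below 0.05 could not rise either, because each setting only removed circRNAs or lowered the limit. With a minimum mean normalized count of 5, 47 kidney-only circRNAs were left, of which 1 had an unadjusted p below 0.05. Of the 47, 40 overlapped no circRNA of another organ, against 204 of all 277 (73.6%). An end was shared with one by 6 of the 47, against 64 of all 277 (23.1%). The shares without overlap and with a common end thus moved as well as the counts, which was not tested. Without the plateau the 9 positive circRNAs became 2, and at a threshold of 0.01 they became 1. The minimum count and the plateau setting leave fewer circRNAs by construction, and the stricter threshold changes only the limit on p. The median log2 fold change ran from 0.27 to 0.34 over its settings. No paired analysis was possible because the deposited tables hold no values per mouse, and for the same reason no mouse could be left out. The host gene counts were not run. Depth per library is unknown, and low means limit what could be detected: 83.0% of the set had a mean normalized count below 5.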

Other observations

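Some scarce kidney-only circRNAs had the very same values as another kidney circRNA. For 26 of the 277, the mean normalized count, log2 fold change and SE in the authors' deposited table equalled those of another row to 9 decimals, in 17 groups of at most 3 rows. The same held for 58 of all 996 kidney circRNAs, so it was not particular to the kidney-only set. All 26 had a mean normalized count of at most 2.02. An example is chr9:45884240-45890027, which had 0.810 and -1.74 (SE 2.45) in the authors' deposited table, as did chr9:46034515-46066838 and chr1:87687773-87694779. The counts of positive and negative fold changes include such rows as separate circRNAs.

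The SE of chr7:120647061-120656622, 3.59 in the authors' deposited table, was the largest of the 277, although its mean normalized count of 11.5 was among the 12 highest. Its log2 fold change was 0.77. The circle with the same end, chr7:120651310-120656622, had -0.55 (SE 1.29) at 7.26.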
